A study of Mus musculus with 34 samples.

Results

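The Sox genes encode transcription factors that bind DNA through a domain related to that of Sry, the sex-determining factor of the Y chromosome, and the members described here are 10 of the family that act in the development of many organs: Sox1, Sox7, Sox8, Sox9, Sox10, Sox11, Sox14, Sox17, Sox18 and Sox21. They were chosen by name, and the array probes that carry such a name were joined into islands of at least 3 probes with gaps of at most 500 bases. A scored island was found for 8 of the 10 genes, 12 islands in all out of 13657 scored on every array. These hold 140 of the 143 probes named for a member, and Sox10 and Sox14 had 0 probes under their names. Of the 12 islands, 6 cover a promoter, 5 lie inside the gene and 1 lies downstream of it, and islands of the same gene were kept apart.

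The series measured DNA methylation at mouse CpG islands: sonicated DNA was bound by an antibody against 5-methylcytidine, and bound and input DNA were hybridized together on an array of CpG island probes, 1 array for each of 34 samples. Its question was how the islands of ES cells, before and after differentiation in culture, compare with those of normal tissue. Embryos, teratomas, sorted beta cells and a pair of pancreatic tumour lines were measured in the same way.

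The adult group holds colon, pancreas, brain, kidney, liver, lung, muscle and spleen from C57Bl/6 mice aged 3 months, 2 arrays per tissue and 16 in all, from males and females. The 5 embryo arrays are 1 each of E8.5, E9.5, E10.5, E11.5 and E12.5, and the last is labelled female and the others male. The undifferentiated ES cells are the lines EB5, J1 and TT2, 1 array each. Of the 5 differentiated ES cell arrays, 2 are endoderm and 1 is mesoderm. These were derived from EB5 through a line that has GFP placed in Gsc and human CD25 placed in Sox17, were kept for 6 days with 10 ng/ml Activin A, and were then sorted, endoderm as Gsc+ Sox17+ and mesoderm as Gsc+ Sox17- cells. Sox17 is therefore both altered on an allele and part of the sort in these 3 samples. A further array is of embryoid bodies from TT2, formed for 2 days in hanging drops and kept 4 more days in suspension. The fifth is of cells treated for 8 days with 1 µM retinoic acid, which the label derives from TT2 and the methods from J1. The 2 teratomas are labelled as J1, whereas the methods name other lines, injected into NOD-SCID mice and taken after 2 weeks, so that host cells may be present. Beta cells were sorted with an insulin antibody from islets of Pdx1-GFP mice aged 2 to 8 months. Min6 is an insulinoma line and aTC a glucagonoma line, both from mouse and both grown in culture, with 1 array each. Nothing beyond the labels says that arrays of the same group are separate animals or cultures, so every p below measures the spread between these samples.

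Sox proteins work with partner factors at enhancers, and closely related members often stand in for each other in the same cells. Promoters of developmental regulators of this kind usually lie in CpG islands, which in most normal tissues carry little DNA methylation whether or not the gene is active. Methylation inside a gene, away from its start, is a separate feature and need not follow that of the promoter.

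The value given throughout is the island score: each probe's log ratio of bound over input DNA was expressed in SD units around the mean of its own array, and the score is the mean over the island's probes. A score below 0 was read as unmethylated and above 0.75 as methylated, the thresholds used in the study, and the score is relative to the other probes of the same array. Signal of the input DNA was well above background for 62.4 to 99.9% of the probes of an array, and the number of arrays limits the precision. The arrays came from 23 slides, 16 scan days and 4 software versions, and 5 of the slides held more than 1 class of sample. The array labelled J1 stood apart. Across probes its scanner log ratio had r = 0.113 with the deposited values of that sample, against 0.894 to 0.991 on the other arrays. Across islands, which are not independent replicates, its scores had r = 0.950 with the adult mean, against 0.814 for EB5 and 0.815 for TT2. Differences that use it are given with and without it, while block and scaling values of those comparisons include it.

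**Figure D1:**
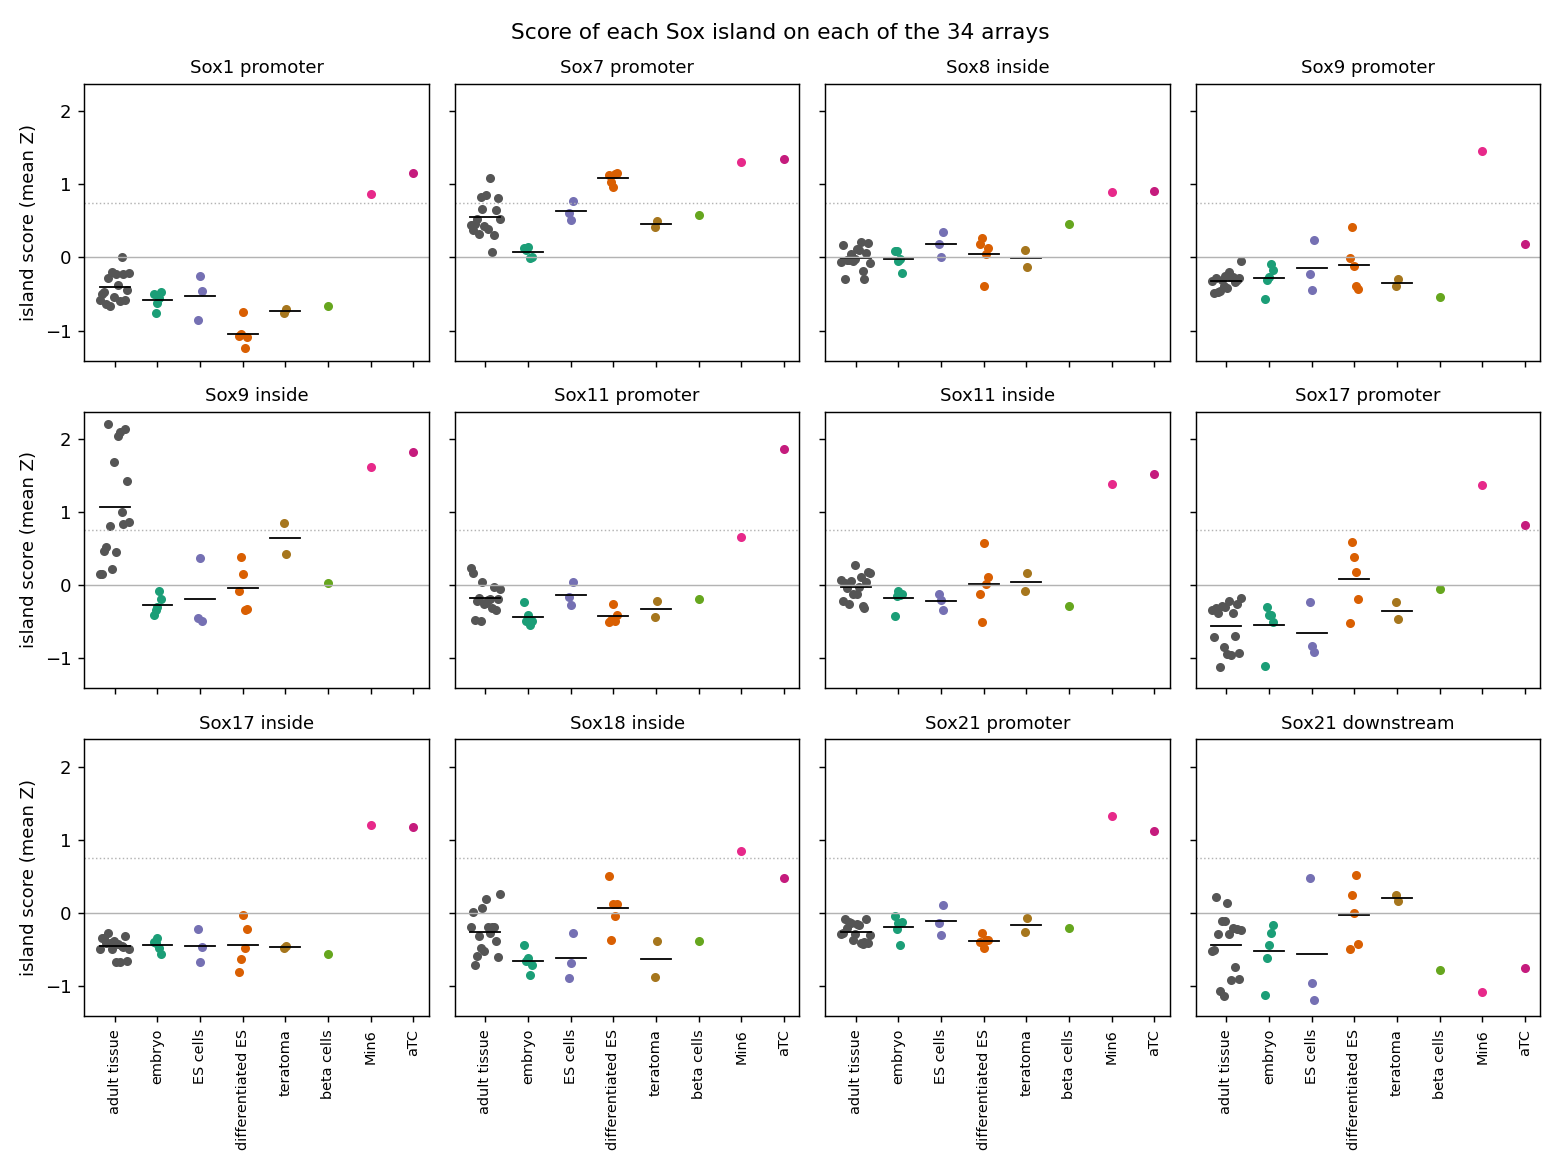
Score of each of the 12 Sox islands (vertical axis, mean Z) on each of the 34 arrays, grouped by class along the horizontal axis, with black bars for the means of classes with more than 1 array and lines at 0 and 0.75. Sox1 promoter is lowest in the differentiated ES cells (mean -1.04), Sox9 inside is high in adult tissue (mean 1.07), and 11 of the 12 islands are above 0 in both tumour lines.

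Promoter sequences are shown for the members with a promoter island whose promoter is held in the RefSeq table, to show the CG pairs at which such promoters can be methylated. For 5 of the 10 members (Sox1, Sox8, Sox11, Sox14 and Sox21) a promoter of 300 bases was found in RefSeq, build GRCm38.p6, from 250 bases before to 50 after the start. The genome build of the array positions is not given in the sources used here, so island positions are printed as the files give them and are not placed on these windows. CG, which reads the same on both strands, is in capitals in the sequences of Sox1 (chr8:12395269-12395568, plus strand), Sox11 (chr12:27342669-27342968, minus strand) and Sox21 (chr14:118236981-118237280, minus strand).

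Sox1: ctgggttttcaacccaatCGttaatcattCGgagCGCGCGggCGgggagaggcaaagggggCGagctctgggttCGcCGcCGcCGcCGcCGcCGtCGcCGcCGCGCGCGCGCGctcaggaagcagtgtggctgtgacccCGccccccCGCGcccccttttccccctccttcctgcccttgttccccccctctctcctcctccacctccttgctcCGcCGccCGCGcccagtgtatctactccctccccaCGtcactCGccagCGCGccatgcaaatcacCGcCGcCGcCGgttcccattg
Sox11: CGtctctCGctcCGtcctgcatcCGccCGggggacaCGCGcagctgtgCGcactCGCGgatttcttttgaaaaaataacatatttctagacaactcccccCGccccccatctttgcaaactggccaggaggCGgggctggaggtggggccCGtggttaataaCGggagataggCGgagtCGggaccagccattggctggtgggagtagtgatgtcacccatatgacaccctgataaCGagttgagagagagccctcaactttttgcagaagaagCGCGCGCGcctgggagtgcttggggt
Sox21: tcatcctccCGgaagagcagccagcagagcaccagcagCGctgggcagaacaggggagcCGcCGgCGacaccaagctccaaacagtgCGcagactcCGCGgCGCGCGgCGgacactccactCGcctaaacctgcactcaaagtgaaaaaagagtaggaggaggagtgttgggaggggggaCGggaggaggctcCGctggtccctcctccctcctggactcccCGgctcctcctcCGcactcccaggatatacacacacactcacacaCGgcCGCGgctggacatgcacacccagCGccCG

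The Sox1 promoter holds 37 CG pairs, and 5.58% of the 32851 RefSeq promoters of this length hold at least as many. Sox11 holds 21 and Sox21 holds 22, which 24.8% and 23.1% of all promoters reach. For the other members with an entry the counts are 21 for Sox8 and 26 for Sox14, and the median over all promoters is 7. These counts describe the sequence and were not compared with the scores.

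In differentiated ES cells, the scores of the Sox7 and Sox17 promoters were higher than in adult tissue, and those of the Sox1 promoter, the Sox11 promoter and the island inside Sox9 were lower. The other 7 islands, the promoters of Sox9 and Sox21, the island downstream of Sox21 and those inside Sox8, Sox11, Sox17 and Sox18, did not pass the test. At an adjusted p under 0.05, limma called 5 of the 12 Sox islands, beside 22.6% of all 13657 islands. The 2 called higher stand beside 15% of all islands, and the 3 called lower beside 7.68%. The share of Sox islands lies above the background, but the members were chosen with earlier results known and 12 islands are few, so nothing particular to the family is read from it.

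Sox7 acts in endothelial cells and in the endoderm outside the embryo proper. Its promoter island (chr14:62897376-62898512 in the array files, 9 probes) scored between 0.0702 and 1.09 on the 16 adult arrays, with a median of 0.488. The score was 1.12 in embryoid bodies, 1.03 after retinoic acid, 0.970 and 1.14 in the endoderm samples and 1.16 in mesoderm. All 5 differentiated arrays lay at or near the top of the adult range, and lung 1 was the single adult array among them. The difference was 0.538 ± 0.107 (SE), with 5 of 5 arrays above the adult mean and a limma adjusted p of 0.000374. Of its probes, 7 of 9 were higher, most of all the probe at position -413 from the start, by 1.45. With slide as a block the difference was 0.496 (limma adjusted p 0.185), with scan day 0.593 (0.0455) and with software version 0.557 (0.00291). Within a slide, endoderm 2 exceeded pancreas 1 by 0.689 and embryoid bodies exceeded brain 2 by 0.304. Without division by the SD of the array, as log2 ratios centred on the median, the difference was 0.43 (limma adjusted p 0.132), and with a Z of median and MAD 0.335 (0.234), so the call rests on the scaling. The Sox7 call was also lost with endoderm alone, with or without a replicate block. Over the 24 alternatives run for Sox7 the difference ran from 0.335 to 0.711.

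Sox17 is a factor of definitive endoderm and of arterial endothelium. Its promoter island (chr1:4486985-4487793, 8 probes from position -1277 to -513) scored between -1.12 and -0.176 on the adult arrays, with a median of -0.381. In embryoid bodies the score was -0.520, after retinoic acid 0.598, in the endoderm samples 0.383 and 0.183, and in mesoderm -0.190. All 16 adult arrays were below 0, retinoic acid treated cells and both endoderm samples were above every adult array, and embryoid bodies and mesoderm lay within the adult range. The difference was 0.641 ± 0.171, with 5 of 5 arrays above the adult mean (limma adjusted p 0.00670), and all 8 probes were higher. It was 0.514 without the retinoic acid array and 0.794 without embryoid bodies, called each time.

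The Sox17 promoter also differed between scan days within adult tissue. The 6 adult arrays of the day that holds most of them, all labelled female, scored between -1.12 and -0.693 (mean -0.912 ± 0.140 SD), and the other 10 between -0.710 and -0.176 (mean -0.333 ± 0.148). At this island, input signal was well above background for 66.4% of the adult spots, and for 2 of the 8 probes on every adult array. Over all probes it was so for 96.5 to 99.3% on the former arrays and for 62.4 to 93.7% on the latter, while endoderm 1, with 99.9%, scored 0.383. The lung samples, both labelled female, scored -0.956 on that day and -0.382 on another. Day, sex and signal can therefore not be told apart for most of these adult arrays. With scan day as a block the difference for the Sox17 promoter was 0.0381 (limma adjusted p 0.907), with slide 0.132 (0.643) and with software version 0.510 (0.0634), so no call remained with these fixed blocks. As a random block, slide left it at 0.551, and it was called (limma adjusted p 0.0104). Within a day, endoderm 2 exceeded pancreas 1 by 0.499, and embryoid bodies were below brain 2, kidney 2 and spleen 2, with a difference of -0.269 from their mean. Log2 ratios centred on the median gave 0.70 (limma adjusted p 0.0506), and normexp background correction gave 0.252 (0.224). Over 22 alternatives the Sox17 difference ran from 0.0381 to 0.833.

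**Figure D2:**
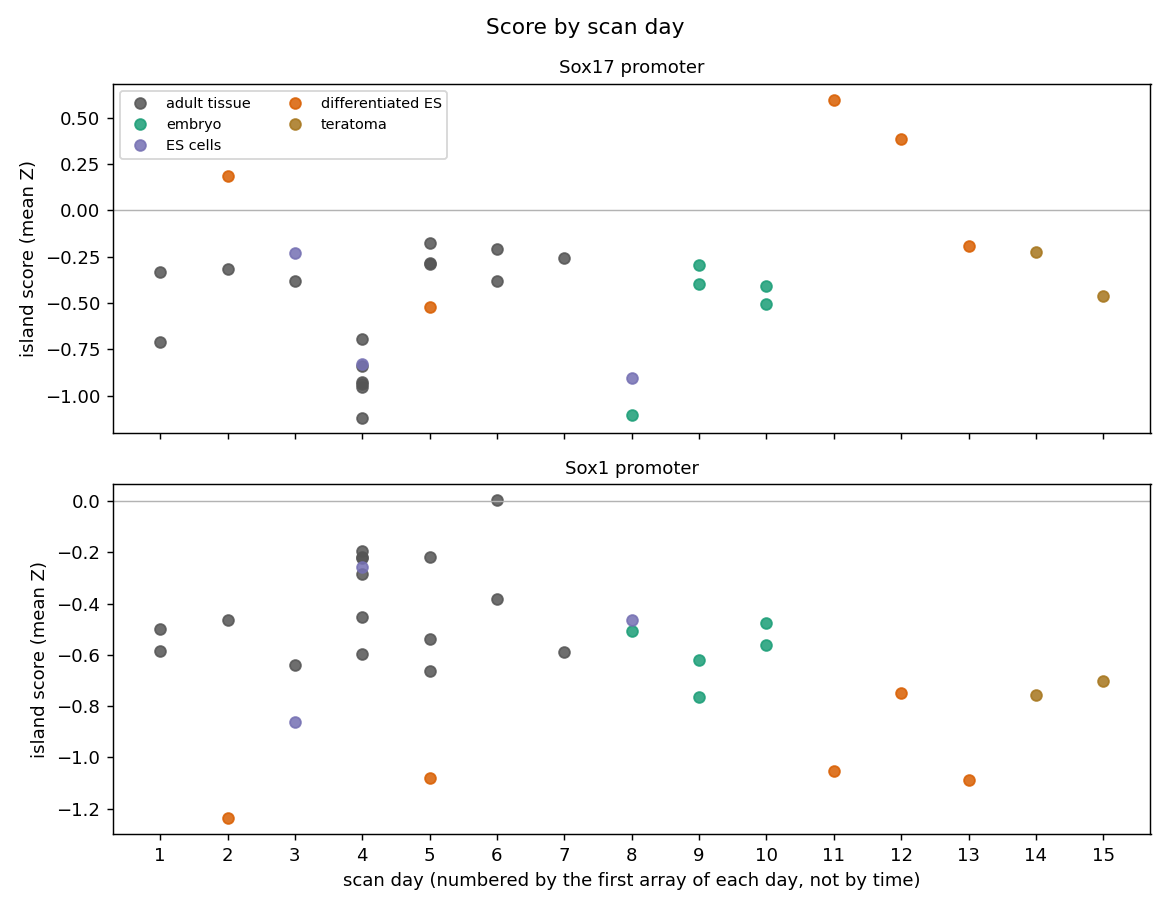
Score (vertical axis, mean Z) of the Sox17 promoter (upper panel) and the Sox1 promoter (lower panel) by scan day on the horizontal axis, numbered without regard to time, each point 1 array coloured by class. On the day with 6 adult arrays the Sox17 promoter lies between -1.12 and -0.693 and the Sox1 promoter between -0.595 and -0.193.

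The second Sox17 island lies inside the gene (chr1:4481674-4483755, 18 probes) and ran from -0.661 to -0.271 on the adult arrays, with a median of -0.440. It scored -0.805 in embryoid bodies, -0.629 after retinoic acid, -0.0290 and -0.477 in endoderm and -0.209 in mesoderm. Every differentiated and every adult array was below 0, with embryoid bodies below and endoderm 1 and mesoderm above the adult range. The difference was 0.0226 ± 0.0920, with 2 of 5 arrays above the adult mean (limma adjusted p 0.892). Sox18, which acts in lymphatic and blood vessels, has an island inside the gene (chr2:181599626-181600933, 12 probes) with adult scores from -0.710 to 0.261 and a median of -0.234. It scored 0.502 in embryoid bodies, -0.366 after retinoic acid, 0.122 and -0.0332 in endoderm and 0.121 in mesoderm. Embryoid bodies were above every adult array and the other 4 lay within the adult range. The difference was 0.323 ± 0.138, with 4 of 5 arrays above the adult mean (limma adjusted p 0.0933), and all 12 probes were higher. Without the retinoic acid array it was 0.432 and was called, without embryoid bodies it was 0.215, and with scan day as a block it was 0.718 (limma adjusted p 0.0311), also called. With slide as a fixed block it was 0.824 (limma adjusted p 0.0701), and with software version 0.324 (0.180). It was called with slide as a random block (0.407, limma adjusted p 0.0353), normexp (0.285, 0.0180) and the deposited values (0.380, 0.0263).

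Sox1 marks the earliest neural cells and helps to keep them as progenitors. Its promoter island (chr8:12395869-12396514, 5 probes) scored between -0.665 and 0.00252 on the adult arrays, with a median of -0.458. In embryoid bodies the score was -1.08, after retinoic acid -1.05, in the endoderm samples -0.750 and -1.24, and in mesoderm -1.09. All 5 differentiated arrays were below all 16 adult arrays, with no overlap, and endoderm 1 was nearest to them. The difference was -0.633 ± 0.102, with 5 of 5 arrays below the adult mean (limma adjusted p 2.76e-05), and all 5 probes were lower, by as much as -1.12 at position 168. With slide as a block it was -0.593 (limma adjusted p 0.0393), with scan day -0.672 (0.00600) and with software version -0.728 (5.73e-05). Endoderm 2 minus pancreas 1, on the same slide, was -0.771, and embryoid bodies minus brain 2, on another, was -0.415. The Sox1 call was kept under each of the 24 alternatives that were run for it, with differences between -0.803 and -0.549.

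Sox21 acts in neural progenitors on the side of neuronal differentiation, as does Sox14 in interneurons, for which there was no probe. The Sox21 promoter island (chr14:117118232-117121027, 21 probes) ran from -0.427 to -0.0786 in adult tissue, with a median of -0.274. It scored -0.392 in embryoid bodies, -0.273 after retinoic acid, -0.476 and -0.367 in endoderm and -0.373 in mesoderm. The retinoic acid array lay at the adult median and the other 4 below it, with endoderm 1 below the adult range. The difference was -0.122 ± 0.0750, with 5 of 5 arrays below the adult mean (limma adjusted p 0.255). The Sox21 island downstream of the gene (chr14:117109672-117109989, 3 probes) spread widely, from -1.14 to 0.224 in adult tissue and from -0.489 to 0.522 in differentiated cells, with a difference of 0.404 ± 0.228 (limma adjusted p 0.213). Its adult mean was -0.770 on the day with 6 adult arrays and -0.225 on the other days.

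Sox11 is expressed in young neurons and in many embryonic progenitors. Its promoter island (chr12:27927488-27929786, 19 probes) scored between -0.482 and 0.242 in adult tissue, with a median of -0.200. It was -0.503 in embryoid bodies, -0.476 after retinoic acid, -0.253 and -0.489 in endoderm and -0.406 in mesoderm. The differentiated arrays lay in the lower part of the adult range, with embryoid bodies and endoderm 2 just below it, and the highest adult scores were those of colon. The difference was -0.257 ± 0.0936, with 5 of 5 arrays below the adult mean (limma adjusted p 0.0465), and 16 of 19 probes were lower. The Sox11 call was lost without embryoid bodies (-0.238), retinoic acid (-0.244), endoderm 2 (-0.241) or mesoderm (-0.262). It was also lost with slide (-0.0196, limma adjusted p 0.940) or scan day (-0.152, 0.430) as a block, and was kept with software version (-0.329, 0.0319), over a range of -0.411 to -0.0196 in 24 alternatives. Robust Z (-0.390, limma adjusted p 0.0619), normexp (-0.137, 0.214), the filter on dim probes (-0.285, 0.0909) and slide as a random block (-0.206, 0.0925) ended it too, as did the median of probes, the 2 classes alone, the adjusted t-test and endoderm alone, so that it was lost in 15 of the 24. On shared slides the differences were -0.0182 for endoderm 2 against pancreas 1 and -0.0210 for embryoid bodies against brain 2. The island inside Sox11 (chr12:27925008-27926012, 9 probes) ran from -0.312 to 0.280 in adult tissue, with a median of 0.00494. It was -0.118 in embryoid bodies, -0.501 after retinoic acid, 0.573 and 0.0193 in endoderm and 0.108 in mesoderm. The retinoic acid array lay below and endoderm 1 above the adult range, and the difference was 0.0402 ± 0.112 (limma adjusted p 0.839), with 3 of 5 arrays above the adult mean.

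Sox9 directs cartilage and testis formation and Sox8 acts beside it, while Sox10, without a probe here, serves neural crest and glia. The island inside Sox9 (chr11:112599837-112601615, 13 probes from position 1546 to 3278) scored between 0.156 and 2.20 in adult tissue, with a median of 0.851. In embryoid bodies it was -0.0714, after retinoic acid 0.393, in endoderm 0.149 and -0.331, and in mesoderm -0.324. Every adult array was above 0, 4 of the 5 differentiated arrays were below all of them, and the retinoic acid array was above both colon samples and kidney 1. The difference was -1.10 ± 0.296, with 5 of 5 arrays below the adult mean (limma adjusted p 0.00677), and 12 of 13 probes were lower. With software version as a block it was -1.18 (limma adjusted p 0.0234), whereas with slide it was -0.838 (0.361) and with scan day -1.03 (0.155), where it was not called. Endoderm 2 minus pancreas 1 was -0.794 and embryoid bodies minus brain 2 was -0.881, each on a shared slide. With normexp background correction the call inside Sox9 was lost (limma adjusted p 0.0845), as it was with endoderm alone, with or without a replicate block. Over 24 alternatives the difference ran from -1.73 to -0.838.

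The Sox9 promoter island (chr11:112597393-112599298, 17 probes) was below 0 on every adult array, from -0.486 to -0.0456 with a median of -0.307. It was -0.00217 in embryoid bodies, 0.418 after retinoic acid, -0.114 and -0.386 in endoderm and -0.435 in mesoderm. Embryoid bodies and the retinoic acid array were above the adult range and the other 3 within it. The difference was 0.215 ± 0.105, with 3 of 5 arrays above the adult mean (limma adjusted p 0.146), and with the median of the probes it was called. Its probes went both ways: 12 of 17 were higher, most of all at position -733 (1.18), and 5 were lower, most of all at position 767 (-0.720). The island inside Sox8 (chr17:25297662-25298236, 6 probes) stayed between -0.299 and 0.217 in adult tissue and between -0.392 and 0.266 in differentiated cells, with a difference of 0.0526 ± 0.0921 (limma adjusted p 0.735). A neighbouring run of 8 probes that the files name jointly for Sox8 and Tmem112 gave -0.0229 (limma adjusted p 0.900).

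**Figure D3:**
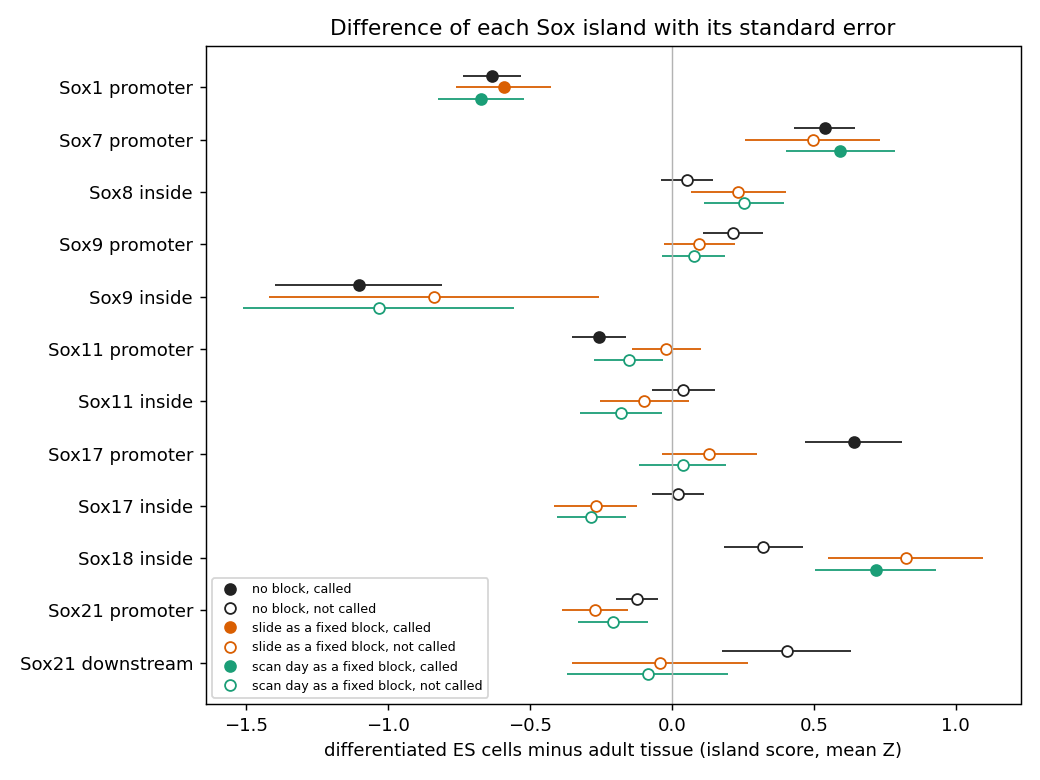
Difference of each Sox island between differentiated ES cells and adult tissue (horizontal axis, mean Z, bars 1 SE), without a block and with slide or scan day as a block, filled where called at adjusted p under 0.05. Sox1 promoter is called in all 3 fits (-0.633, -0.593 and -0.672), while Sox17 promoter moves from 0.641 to 0.132 and 0.0381.

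Sox9, Sox11, Sox17 and Sox21 have both a promoter island and another island, which allowed their change to be compared within each array. At Sox9 the islands came together: the promoter lay below the island inside the gene by a mean of -1.39 ± 0.730 (SD) in adult tissue and by -0.0669 ± 0.130 in differentiated cells. The change was 1.32, with p = 0.00118 in a 2-sided exact permutation test over 20349 splits and 0.00256 after adjustment over the 4 genes. At Sox17 they came apart, with promoter minus inside at -0.0979 ± 0.296 in adult tissue and 0.521 ± 0.457 in differentiated cells, a change of 0.618 (exact permutation p = 0.00128, adjusted 0.00256). At Sox21 the change of promoter minus downstream was -0.527 (exact permutation p = 0.0142, adjusted 0.0189), and without endoderm 2 it was -0.392 and no longer passed. At Sox11 promoter minus inside changed by -0.297 (exact permutation p = 0.0686, adjusted 0.0686), and without the retinoic acid array by -0.414, which passed, and without endoderm 1 by -0.201. For Sox17 and Sox21 the scan day of the adult arrays moves with the scores, and its part in these changes was not tested. The permutation takes no account of slide or scan day at any of the 4 genes. At the island inside Sox9 the limma call was lost with either as a fixed block.

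**Figure D4:**
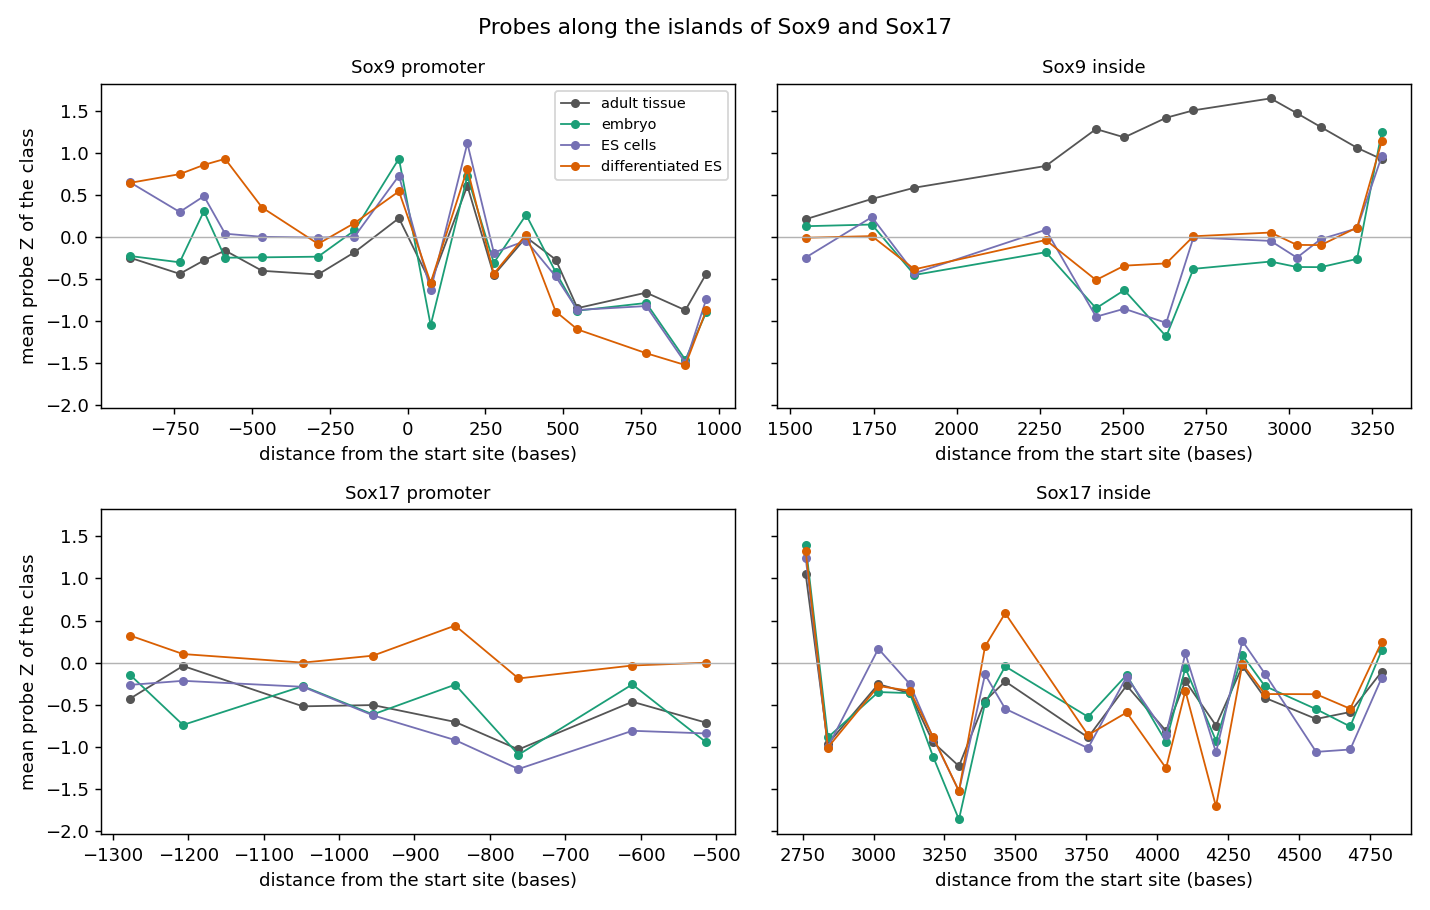
Mean Z of each probe in a class (vertical axis) against its distance in bases from the start site, for the promoter and inside islands of Sox9 and Sox17, in adult tissue, embryos, ES cells and differentiated ES cells. Adult tissue reaches 1.65 inside Sox9, where 12 of 13 probes are lower in differentiated cells, and the last probe, at 3278 bases, is at 1.13 in differentiated cells and 0.923 in adult tissue.

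Before differentiation, 3 ES cell lines with 1 array each, J1 among them, stand against adult tissue. At an adjusted p under 0.05 limma called 0 of the 12 Sox islands, beside 2.34% of all islands, and 2 of the 12 had an unadjusted p under 0.05, against 2313 of all 13657. The methods' t-test on the same scores gave 1 Sox island at an unadjusted p under 0.05, beside 16.4% of all islands. The island inside Sox9 scored -0.452 in EB5, 0.371 in J1 and -0.484 in TT2, against 0.156 to 2.20 in adult tissue. EB5 and TT2 were below every adult array and J1 was within the adult range. The difference was -1.26 ± 0.363, with 3 of 3 arrays below the adult mean (limma adjusted p 0.0610), and without J1 it was -1.54 (0.0213), which passed. On a shared slide EB5 minus pancreas 2 was -0.971. Sox18 inside, at -0.880, -0.676 and -0.268 in EB5, J1 and TT2, differed by -0.354 ± 0.169 (limma adjusted p 0.285), and by -0.321 without J1. The promoters of Sox9 and Sox21 differed by 0.173 ± 0.129 and 0.151 ± 0.0921 (limma adjusted p 0.529 and 0.422), and by 0.324 and 0.247 without J1, not called. With the deposited values limma called 3 islands, Sox9 inside (-1.12, limma adjusted p 0.0221) and the promoters of Sox9 (0.473, 0.0243) and Sox21 (0.254, 0.0223), beside 26.3% of the 5850 islands of that fit.

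Against the undifferentiated lines, differentiated cells scored lower at the Sox1 promoter and higher inside Sox18, with J1 included. limma called these 2 of the 12 islands, beside 5.29% of all islands, a number too small to set against that share. The Sox1 promoter scored -0.862 in EB5, -0.257 in J1 and -0.464 in TT2, and between -1.24 and -0.750 after differentiation. All 3 lines were above the differentiated arrays apart from EB5, which lay below endoderm 1. The difference was -0.514 ± 0.145, with 5 of 5 arrays below the mean of the lines (limma adjusted p 0.0345). Sox18 inside was 0.677 ± 0.197 higher, with 5 of 5 arrays above the mean of the lines (limma adjusted p 0.0401), and retinoic acid treated cells, at -0.366, were below TT2, the line of their label, by -0.0975.

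Both calls between differentiated and undifferentiated cells depended on single arrays. Without J1 there were 0 limma calls among the Sox islands, with Sox1 at -0.379 (limma adjusted p 0.197) and Sox18 at 0.643 (0.114). The Sox1 call was also lost without TT2 (-0.482), embryoid bodies (-0.505), endoderm 2 (-0.466) or mesoderm (-0.502). That of Sox18 was lost without EB5 (0.541), embryoid bodies (0.569), endoderm 1 (0.664), endoderm 2 (0.703) or mesoderm (0.664). With slide as a block the differences were -0.373 for Sox1 and 1.12 for Sox18, neither called, and with scan day -0.636, not called, and 1.14, called (limma adjusted p 0.0378). Both passed with slide as a random block, at -0.503 and 0.726 (limma adjusted p 0.0310 for each). With software version as a block Sox1 was at -0.580 (limma adjusted p 0.0294) and Sox18 at 0.659 (0.0823). Neither passed with log2 ratios (-0.616 and 0.902), robust Z (-0.584 and 0.836) or normexp (-0.368 and 0.356), nor with the 2 classes alone or the adjusted t-test. The Sox18 call was also lost with the deposited values (0.440), the dim-probe filter (0.583) and the median of probes (0.513).

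The Sox7 promoter, at 0.610, 0.506 and 0.773 in EB5, J1 and TT2, was below all 5 differentiated arrays, with a difference of 0.455 ± 0.152 (limma adjusted p 0.0766), and 0.393 without J1 (0.228). With the deposited values it was 0.617 and was called (limma adjusted p 0.00906). The Sox17 promoter scored -0.228, -0.827 and -0.905 in these lines. Both TT2 and J1 were below all 5 differentiated arrays, and EB5 was within their range. J1 shared its scan day with the 6 adult arrays that were low at this promoter. The difference was 0.744 ± 0.244 (limma adjusted p 0.0706), 0.957 without EB5 and 0.897 without embryoid bodies, called both times, and 0.657 without J1 (0.203). With slide as a block its sign turned, at -0.0201, and with scan day at -0.0714, neither called, whereas with software version it was 0.690 (limma adjusted p 0.116). Set against the parent line of its label, the Sox17 promoter was higher by 0.611 and 0.411 in endoderm, by 0.0377 in mesoderm, by 0.386 in embryoid bodies and by 1.50 after retinoic acid. The Sox1 promoter differed from EB5 by 0.111, -0.376 and -0.228 in endoderm 1, endoderm 2 and mesoderm, and from TT2 by -0.616 and -0.589 in embryoid bodies and after retinoic acid.

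At the other islands the lines EB5, J1 and TT2 scored -0.226, -0.447 and 0.236 at the Sox9 promoter and -0.162, -0.263 and 0.0451 at the Sox11 promoter. Inside Sox11 they were at -0.118, -0.206 and -0.336, inside Sox17 at -0.222, -0.661 and -0.465, and at the Sox21 promoter at -0.132, -0.296 and 0.119. TT2 was the single line above 0 at the 3 promoters of Sox9, Sox11 and Sox21. It was above all 16 adult arrays at the Sox9 and Sox21 promoters and below all of them inside Sox11, and inside Sox17 EB5 was above all of them. Whether the change on differentiation differs between EB5 and TT2 was tested by the interaction in limma, which called 0 of the 12 islands and 0% of all islands, with 1 of 12 and 426 of 13657 at an unadjusted p under 0.05. That 1 island, Sox21 downstream, had an interaction of 1.52 ± 0.589 (limma adjusted p 0.998). Each line has 1 undifferentiated array in this test, and line and kind of differentiation cannot be told apart, so its count of 0 does not show that the lines respond alike.

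In embryos, the Sox7 promoter and the island inside Sox9 scored lower than in adult tissue, and those of Sox1 and Sox17 were not called. limma called these 2 of the 12 islands, beside 8.25% of all islands, and with so few islands the share cannot be set apart from that background. The comparisons of embryos and of ES cells share the adult arrays and are not independent of each other.

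Inside Sox9 the embryos scored -0.406, -0.341, -0.301, -0.0804 and -0.191 from E8.5 to E12.5. All 5 were below 0 and below all 16 adult arrays, with no overlap. The difference was -1.33 ± 0.296, with 5 of 5 arrays below the adult mean (limma adjusted p 0.00396), and 12 of 13 probes were lower. With slide, scan day or software version as a block it was -0.892 (limma adjusted p 0.945), -0.807 (1.00) and -1.60 (0.597). At the Sox7 promoter the embryos scored 0.125, 0.106, 0.148, -0.00503 and 0.00454. They lay at the foot of the adult range, with lung 2, at 0.0702, the single adult array among them. The difference was -0.470 ± 0.107, with 5 of 5 arrays below the adult mean (limma adjusted p 0.00471), and 9 of 9 probes were lower. With the same 3 blocks it was -0.562 (limma adjusted p 0.925), -0.723 (0.999) and -0.462 (0.679), so that the direction was kept and no call was. Both were called with slide as a random block, at -1.29 (limma adjusted p 0.0320) for Sox9 and -0.467 (0.0332) for Sox7. With normexp neither was called, Sox9 at -1.33 (limma adjusted p 0.126) and Sox7 at -0.165 (0.686). Embryo and adult arrays never shared a slide or a scan day.

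Of the islands that were not called, Sox18 inside was at -0.431, -0.658, -0.617, -0.851 and -0.705 from E8.5 to E12.5, with a difference of -0.399 ± 0.138 from adult tissue (limma adjusted p 0.0711). The Sox11 promoter, at -0.226, -0.485, -0.402, -0.541 and -0.493, differed by -0.261 ± 0.0936 (limma adjusted p 0.0837). The Sox1 promoter was at -0.506, -0.765, -0.621, -0.560 and -0.474 and the Sox17 promoter at -1.10, -0.296, -0.400, -0.407 and -0.507, with differences of -0.176 ± 0.102 and 0.00757 ± 0.171. Every embryo array was below 0 at these 4 islands, within the adult range or below it. The remaining promoters, of Sox9 and Sox21, ran from -0.566 to -0.0846 and from -0.432 to -0.0420. The islands inside Sox11 and Sox17 ran from -0.424 to -0.0798 and from -0.553 to -0.332.

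Between differentiated ES cells and embryos, the Sox7 and Sox17 promoters and the island inside Sox18 were higher in the cultured cells and the Sox1 promoter was lower. limma called these 4 of 12 islands, beside 20.9% of all islands. The Sox7 promoter ran from 0.970 to 1.16 in cultured cells and from -0.00503 to 0.148 in embryos, without overlap, and all 9 probes were higher. The difference was 1.01 ± 0.132, with 5 of 5 arrays above the embryo mean (limma adjusted p 3.32e-06). Inside Sox18 the arrays ran from -0.366 to 0.502 and from -0.851 to -0.431, also without overlap, with a difference of 0.722 ± 0.170 and all 5 arrays above the embryo mean (limma adjusted p 0.00305). The Sox1 promoter differed by -0.457 ± 0.126 (limma adjusted p 0.00992), with endoderm 1 overlapping the embryos and 5 of 5 arrays below their mean. The Sox17 promoter differed by 0.634 ± 0.211 (limma adjusted p 0.0319), with embryoid bodies overlapping the embryos and 5 of 5 arrays above their mean.

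The Sox17 call against embryos was lost without E8.5 (0.493), retinoic acid (0.507), endoderm 1 (0.560) or endoderm 2 (0.610). With slide as a block limma called 0 of the 12 Sox islands, beside 0.666% of all islands. Scan day also left 0 of the 12, beside 2.42% of all islands. The differences with these 2 blocks were 1.06 and 1.32 for Sox7, 1.28 and 1.30 for Sox18, -0.330 and -0.594 for Sox1, and 0.178 and 0.127 for Sox17. With software version, where 1.15% of all islands were called, none of these 4 was, at 1.02 for Sox7, 0.443 for Sox18, -0.542 for Sox1 and 1.30 for Sox17. The calls for Sox1 and Sox17 were also lost with log2 ratios (-0.489 and 0.792), robust Z (-0.461 and 0.785) or normexp (-0.438 and 0.101). That of Sox17 was lost with the median of probes, the 2 classes alone and the adjusted t-test as well, in all in 13 of 25 alternatives. No slide or day held both a differentiated and an embryo array, so these blocks draw on indirect links. All 4 calls were kept with slide as a random block, at 1.00 for Sox7, 0.795 for Sox18, -0.440 for Sox1 and 0.609 for Sox17 (limma adjusted p 0.0484).

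In teratomas, where ES cells differentiate in a mouse and not in a dish, the Sox7 promoter was at 0.416 and 0.497, inside the adult range and below all 5 arrays of cells differentiated in culture. limma called 1 of the 12 Sox islands between teratomas and cultured differentiated cells, this one, beside 6.28% of all islands. The difference was -0.628 ± 0.187, with 2 of 2 arrays below the mean of the cultured cells (limma adjusted p 0.0453). It was lost without embryoid bodies (-0.618), endoderm 1 (-0.657), endoderm 2 (-0.614), mesoderm (-0.609) or either teratoma (-0.587 and -0.668), and with log2 ratios (-0.568), robust Z (-0.569), normexp (-0.565) or slide as a random block (-0.617). With software version as a block limma called 0 of the 12 Sox islands, beside 3.82% of all islands. Slide and day could not be fitted, since each teratoma had its own slide and day.

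Inside Sox9 the teratomas scored 0.855 and 0.427, within the adult range and above all 5 cultured arrays, and the difference from the latter was 0.678 ± 0.518 (limma adjusted p 0.525). Sox18 inside, at -0.870 and -0.385, was below all 5 cultured arrays, with a difference of -0.697 ± 0.237 (limma adjusted p 0.0829), and passed without the retinoic acid array, at -0.806. The promoters scored -0.756 and -0.702 at Sox1, -0.225 and -0.465 at Sox17, -0.437 and -0.216 at Sox11, -0.388 and -0.300 at Sox9 and -0.261 and -0.0598 at Sox21. Both teratomas were thus below 0 at these 5 promoters, and at Sox1 both were below all adult arrays. Inside Sox11 they were at -0.0817 and 0.164 and inside Sox17 at -0.471 and -0.442. Against adult tissue limma called 0 of the 12 islands, beside 0.205% of all islands. At an unadjusted p under 0.05 there were 2 of the 12, Sox1 promoter (-0.320 ± 0.146) and Sox21 downstream (0.634 ± 0.288), against 880 of all 13657, and the methods' t-test had 1 of the 12, against 1032 of all islands.

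Several members have a part in particular organs, and the adult tissues were compared with each other. The moderated F test of limma over the 8 tissues called 0 of the 12 islands, beside 0.0805% of all islands, and 0 of the 12 had an unadjusted p under 0.05, against 522 of all islands. Brain against the other 7 tissues gave 0 limma calls for the Sox islands and 0% of all islands, with 0 of 12 and 543 of 13657 at an unadjusted p under 0.05. The methods' t-test of brain against the others gave 0 of 12 and 651 of 13657 at an unadjusted p under 0.05. With 2 arrays per tissue these tests can miss differences. In addition, brain, kidney, liver, lung, muscle and spleen each had 1 of their 2 arrays on the same scan day, and the spread within these tissues includes that of the day. At the Sox17 promoter the array of that day was the lower in 6 of the 6 tissues, and at Sox21 downstream in 5 of the 6, all but liver.

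Inside Sox9, where adult scores spread most, samples of the same tissue could lie far apart. Brain was at 2.20 and 0.810, kidney at 0.224 and 1.69, liver at 0.454 and 2.04, lung at 2.10 and 1.00 and muscle at 0.839 and 2.13. Spleen was at 1.42 and 0.863, pancreas at 0.464 and 0.519 and colon at 0.156 and 0.160. Colon and pancreas were below 0.75 in both samples, while kidney and liver had 1 sample below it and 1 above. The day with 6 adult arrays did not separate them, with a mean of 1.21 ± 0.837 (SD) against 0.984 ± 0.732 on the other days. The Sox11 promoter was above 0 in both colon samples (0.242 and 0.168) and in kidney 1 (0.0462), and below 0 on the other 13 adult arrays. Colon against the other tissues differed there by 0.427 ± 0.134 (limma adjusted p 0.254).

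By the thresholds of the study, 4 Sox islands were below 0 on all 16 adult arrays: the promoters of Sox9, Sox17 and Sox21 and the island inside Sox17. Over all islands 4444 met this, 32.5%, so 4 of 12 is close to the background. 0 of these 4 exceeded 0.75 on any of the 5 differentiated arrays, where 129 of the 4444 did, 2.90%. These are counts of single arrays, with no test by limma or another tool. At a threshold of 0.5 the Sox17 promoter passed in retinoic acid treated cells (0.598), as 1 of 35 islands on that array. The largest other score of these 4 islands was that of the Sox9 promoter after retinoic acid, 0.418.

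In the tumour lines Min6 and aTC, nearly all Sox islands had high scores. 9 of the 12 were below 0 in sorted beta cells, and 8 of these 9 exceeded 0.75 in Min6 or aTC. Over all islands 1006 did so, 7.37% of the whole and 12.2% of the 8221 below 0 in beta cells, so the share of Sox islands, which belong to 6 genes, lies above that of all islands in these single arrays. Of the listed islands below 0 in beta cells, 6 of 11 of neural crest and glia genes, 4 of 9 of endoderm genes and 4 of 14 of nervous system genes also exceeded 0.75 in Min6 or aTC. So did 1 of 6 of the other Sox genes, 0 of 7 of cartilage and gonad genes and 0 of 3 of vessel genes. The 1 of the other Sox genes is the longer of the Sox2 promoter islands (-0.0855 in beta cells, 1.11 in Min6 and 1.17 in aTC). Of the 8 member islands counted first, Min6 had 7, aTC 6 and both lines 5. With thresholds of 0.5 and 1 the count of member islands in Min6 or aTC was 8 and 7. With 1 array each there is no replicate and no test, and the lines shared a slide and, with beta cells, a scan day.

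The neural member Sox1 was at -0.660 at its promoter in beta cells, 0.866 in Min6 and 1.15 in aTC, and the Sox21 promoter at -0.198, 1.33 and 1.13. At the Sox11 promoter the scores in the same order were -0.189, 0.663 and 1.87, and inside Sox11 -0.287, 1.39 and 1.52. These 4 islands were below 0 in the sorted cells and high in both lines, although the Sox11 promoter did not reach 0.75 in Min6. For the endothelial and endodermal members, the Sox17 promoter was at -0.0468, 1.37 and 0.825, the island inside Sox17 at -0.562, 1.20 and 1.18, and that inside Sox18 at -0.382, 0.847 and 0.478. The Sox7 promoter, already at 0.584 in beta cells, was at 1.30 and 1.35. Sox18 was thus past 0.75 in Min6 and not in aTC. At Sox9, needed in pancreatic progenitors and kept in duct cells, the promoter was at -0.536, 1.46 and 0.182 and the island inside the gene at 0.0385, 1.62 and 1.82. The Sox9 promoter was the island that differed most between the lines in favour of Min6, and the Sox11 promoter the one most in favour of aTC. Inside Sox8 the scores were 0.452, 0.890 and 0.905.

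Sox21 downstream was the exception among the 12, at -0.778 in beta cells, -1.07 in Min6 and -0.745 in aTC. The median over all islands was -0.138 in beta cells, -0.307 in Min6 and -0.338 in aTC, while the median of the 12 Sox islands was -0.243, 1.25 and 1.14. Among all islands of its array, the Sox1 promoter stood at percentile 11.7 in beta cells, 82.2 in Min6 and 83.7 in aTC. The Sox11 promoter stood at percentiles 45.9, 79.2 and 96.3 and the Sox9 promoter at 19.0, 88.8 and 66.2. The Sox7 promoter, at 84.5, 87.2 and 87.0, and the island inside Sox8, at 81.3, 82.4 and 79.5, hardly changed in rank. The share of all islands above 0.75 was 12.8% in beta cells, 19.6% in Min6 and 23.2% in aTC. The Sox8 and Tmem112 run scored 0.606, 1.12 and 1.38.

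**Figure D5:**
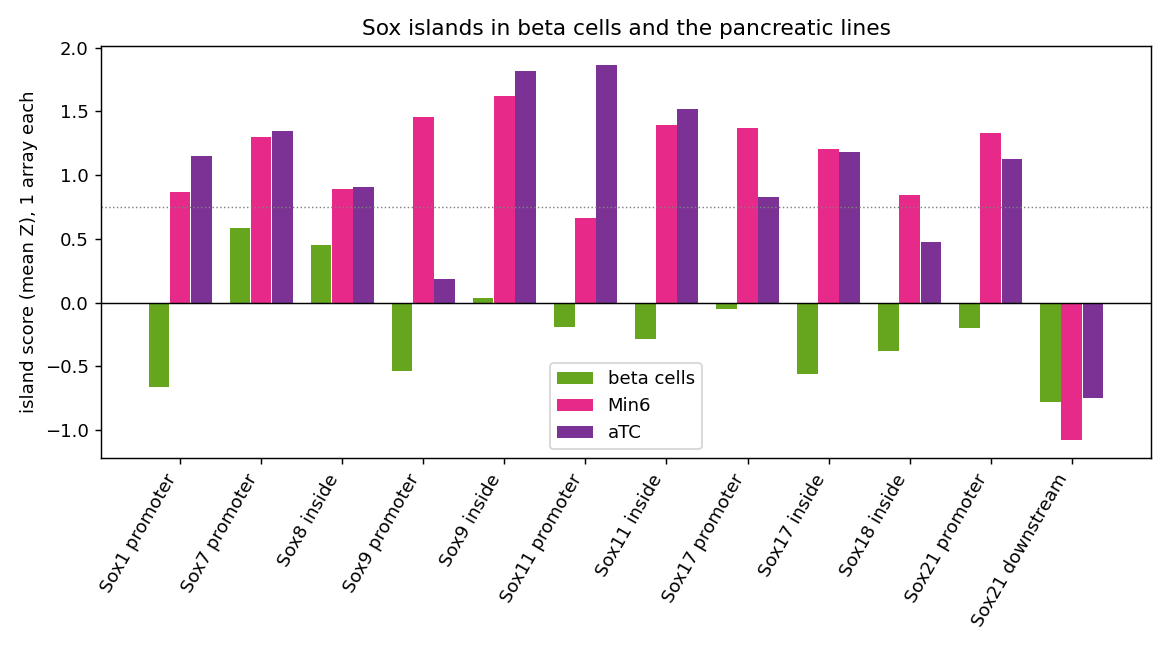
Score of each Sox island (vertical axis, mean Z, 1 array each) in sorted beta cells, Min6 and aTC, with a dotted line at 0.75. The promoters of Sox1, Sox17 and Sox21 lie below 0 in beta cells and between 0.825 and 1.37 in the lines, and Sox21 downstream stays below 0 in all 3.

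Other Sox genes and genes that Sox factors work with were described by the same comparison of differentiated ES cells with adult tissue. The median difference over the 12 member islands was 0.0464, and over all islands it was 0.0035. The counts of calls below stand beside 22.6% of all islands called, 15% higher and 7.68% lower, and with so few islands per list none is set apart from that background. The other Sox genes on a fixed list, among them the pluripotency factor Sox2, had 12 islands for 7 of 10 genes, with a median of -0.0376 and 0 limma calls. Of endoderm genes, limma called 1 of 2 promoter islands each of the regulators Gata4 (1.28 ± 0.359) and Foxa2 (0.371 ± 0.120) higher, and the promoter of the mesendoderm factor Mixl1 lower (-0.492 ± 0.120). The longer promoter islands of Gata4 and Foxa2, at 0.268 and -0.122, were not called. Of 16 islands of nervous system genes, with a median of 0.0501, 2 were called higher, both of Pax6 (1.25 ± 0.321 and 1.11 ± 0.311), and 2 lower, both of Pou3f2 (-0.344 ± 0.0934 and -0.241 ± 0.0859). The called Pax6 islands have 3 and 4 probes, and its promoter islands of 17 and 7 probes, at 0.0333 and 0.528, were not called. Nor were the Pou3f2 islands of 3 probes, at 0.345 downstream and -0.129 at the promoter.

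For the neural crest and glia genes, in whose company Sox10 acts, 2 of 15 islands were called, both higher, with a median of -0.0732: 1 of 3 promoter islands of Foxd3 (0.667 ± 0.135) and 1 of 2 of Pax3 (0.649 ± 0.210). The longest promoter island of Foxd3 was at -0.0732 and the other one of Pax3 at -0.267. Of 12 islands of cartilage and gonad genes, the setting of Sox9 and Sox8, limma called 4, all higher, with a median of 0.262. These were 2 inside the cartilage matrix gene Comp (1.94 ± 0.119 and 0.726 ± 0.110), 1 inside Amh (0.849 ± 0.159) and 1 downstream of Nr5a1 (0.536 ± 0.0995). Of 12 islands of vessel genes, the setting of Sox7, Sox17 and Sox18, 4 were called, all lower, with a median of -0.130. They are a promoter island of the Notch ligand Dll4 (-0.826 ± 0.208) and islands inside 3 genes. These are the endothelial cadherin Cdh5 (-0.749 ± 0.199), Notch1 (-0.508 ± 0.163) and the lymphatic factor Prox1 (-0.384 ± 0.120). The Notch1 promoter, with 18 probes (0.0946), and the island of 12 probes inside Dll4 (-0.0229) were not called. Nor were the promoter islands of Prox1 (0.0235, -0.449 and -0.237).

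The islands whose pattern was most like that of the Sox17 promoter, by Pearson's r over the means of 24 groups, were those of Hoxb13 (0.927), Gata3 (0.912), 2600010E01Rik (0.899), Gfi1 (0.895) and Otx2 (0.894). The median r over the 12170 named islands compared was -0.211. Without Min6 and aTC, over 22 groups, the same islands had 0.870, 0.779, 0.760, 0.728 and 0.708, so a part of the likeness to the Sox17 promoter comes from these lines. The groups share slides and scan days, and r is given as a description.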

How the data were processed

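In each of 34 samples, bound and input DNA had been hybridized to a dual-colour array of mouse CpG islands. In the scanner files the authors deposited, each spot has a log10 ratio (bound to input, background-subtracted and with linearly normalized dyes) and the median intensity of spot and background in both dyes. The deposited value table holds a score, a Z per probe that the authors made from the log ratios before deposit, by their methods scaled by melting temperature, which the files do not give. Its column medians run from -0.315 to -0.0134, and it was used as an alternative. Here each array's log10 ratios were turned into Z over all probes of its design (97651 or 88737), without spots flagged as outliers. The Z of the 88358 probes with a position on both designs were then averaged over islands. These were runs of at least 3 probes with gaps of at most 500 bases. Probes named for a member were joined only with probes of the same name, and all other probes by position, whatever their name.

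limma 3.58.1 (R 4.3.3) was fitted to all 13657 islands, with 1 fit over adult, embryo, ES and differentiated ES arrays, 1 over adult, differentiated ES and teratoma arrays, 1 over adult tissues and 1 over EB5, TT2 and their derivatives. P values were adjusted by Benjamini-Hochberg over all islands, called under 0.05. Promoter and other islands of a gene were compared by a 2-sided exact permutation test. The procedure was tested on simulated data. Tables were made in Python 3.11.15 with numpy 2.4.6 and pandas 2.3.3, and figures with matplotlib 3.10.9.

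Members and gene lists were chosen with earlier results of these data known. All members are accounted for, with values on every array for islands called in differentiated ES cells, called among adult tissues, or gained in differentiated cells or the pancreatic lines. The listed genes that are named had an island called, and the 5 named islands most like the Sox17 promoter are given. The lists are the other Sox genes and genes of endoderm, nervous system, neural crest and glia, cartilage and gonad, and vessels. Alternatives were the scaling (log2 ratios centred on the median, robust Z), normexp with an offset of 50, the deposited values, a filter on dim input probes, the median of probes, at least 5 probes, gaps of at most 300 bases, the 2 compared classes alone, the methods' equal-variance t-test, blocks for slide, scan day, software version or replicate number, and arrays left out in turn.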

Additional observations from a re-analysis of the deposited data

Results flagged for a closer look

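Both results here are of the E8.5 embryo, which lay far from the other 4 embryo arrays. At the Sox17 promoter it scored -1.10, and the gap to the next array made up 0.739 of the range of the 5. The island inside Sox11 was at -0.424, with a gap of 0.789 of the range. In all 24 sets of arrays were examined in this way, with a threshold on the gap that chance passes in about 1 in 20 sets. The E8.5 array shared its slide and scan day with the ES line TT2, which scored -0.905 at the Sox17 promoter and -0.336 inside Sox11. Their part in these values was not tested. No Sox island moved up on every differentiated array of EB5 and down on every one of TT2, or the reverse.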

How the results depend on the processing

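Of 613 alternative values for 27 island differences, 479 kept their direction and their side of the threshold, 105 kept the direction but no longer passed, 26 came to pass and 3 turned their sign. The Sox17 promoter between differentiated and undifferentiated ES cells turned to -0.0201 with slide and -0.0714 with scan day as a block, and the Sox21 downstream interaction of line and differentiation turned to -0.161 with normexp.

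The counts of Sox islands called by limma moved as follows. Against adult tissue, differentiated cells had 3 with log2 ratios, robust Z, normexp, the dim-probe filter or scan day as a block, 1 with slide as a block, 4 with the 2 classes alone, software version as a block or the adjusted t-test, 7 with the unadjusted t-test, and 2 with endoderm alone, with or without a replicate block. ES cells had 3 with the deposited values and 1 with gaps of at most 300 bases, the methods' unadjusted t-test or without J1. Embryos had 4 with log2 ratios or the unadjusted t-test and 0 with normexp or slide, scan day or software version as a block. Between differentiated and undifferentiated cells there were 0 limma calls with log2 ratios, robust Z, normexp, the 2 classes alone or slide as a block, 0 with the adjusted t-test, 1 with the median of probes, scan day or software version, 4 with the deposited values and 5 with the unadjusted t-test. Between differentiated cells and embryos there were 2 with log2 ratios, robust Z or normexp, 3 with the median of probes, the dim-probe filter, the 2 classes alone or the adjusted t-test, 5 with the unadjusted t-test, 1 with software version and 0 with slide or scan day. Teratomas had 1 against adult tissue with the unadjusted t-test. Against differentiated cells they had 4 with the unadjusted t-test and 0 limma calls with log2 ratios, robust Z, normexp, the median of probes, the 2 classes alone, software version or a random slide block, and 0 with the adjusted t-test. The share of all islands called moved as well, so these counts are not set apart from it. For differentiated cells against adult tissue it was 14.5% with slide as a block and 32.4% with the unadjusted t-test. That t-test called 23.4% for embryos, 12.1% between differentiated and undifferentiated cells, 32.8% between differentiated cells and embryos and 14.2% between teratomas and differentiated cells. The deposited values gave 26.3% for ES cells and 22.8% between differentiated and undifferentiated cells. For embryos against adult tissue the share was 6.81% with log2 ratios and 0.725% with normexp. With slide, scan day and software version as a block it fell to 0.0220%, 0% and 0.0146%. Between differentiated and undifferentiated cells it was 1.74% with log2 ratios, 1.76% with robust Z, 0.622% with normexp and 1.38% with slide as a block. The cause was not tested.

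With single arrays left out, none of them adult, the count ran from 4 to 5 for differentiated cells against adult tissue, from 0 to 1 for ES lines, from 0 to 2 between differentiated and undifferentiated cells, from 3 to 4 against embryos and from 0 to 2 for teratomas against differentiated cells. The change of promoter minus other island ran from -0.414 to -0.201 at Sox11 and from -0.639 to -0.392 at Sox21. Sox islands gained in differentiated cells became 1 at a threshold of 0.5.

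The labels do not say that replicate numbers pair samples, and they were not taken to, although replicate 1 of 6 adult tissues shares a scan day: over 45 pairs of the 10 groups with 2 arrays, the differences between replicates had r from -0.253 to 0.620 with a median of 0.0397, and 18 pairs were over 0.1. With a replicate block and endoderm alone, Sox1 was at -0.585 and Sox17 at 0.833, both called. Slide and scan day as fixed blocks could not be fitted for teratomas or over all adult tissues at once, nor software version for adult tissues. A scan day block within the 6 adult tissues that share days was not run. The dim-probe filter and deposited values give 10 of the 12 islands, without Sox17 promoter and Sox21 downstream. Normexp was planned on mean signals, which the files lack. Normexp on median signals, runs joined whatever the name, every probe of the larger design and endoderm alone without a block were chosen after seeing the data.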
